A study of Mus musculus with 30 samples.

Results

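The genes described here encode the estrogen-related receptors (ERRs) and the proteins that work with them: the receptors Esrra, Esrrb and Esrrg, the coactivators Ppargc1a and Ppargc1b, the corepressor Nrip1, the deacetylase Sirt1 and the receptor Ppara. Every probe set whose array annotation gave one of these symbols was taken, which yielded 14 probe sets for 8 genes, of 22626 probe sets and 12393 named genes on the array. Null newborn mice lacking ERRγ, the product of Esrrg, were set against wild-type newborn mice. Affymetrix MOE430A arrays read total RNA of stomach, kidney, liver, salivary tissue and brain, 3 arrays for each genotype and tissue and 10 groups in all. Per the labels, all mice had a mixed SV129/C57BL/6 background, were neonatal, had free access to chow and were of unknown sex. The sources used here do not say how the null allele was made or whether any other allele was carried.

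ERRs are orphan nuclear receptors that bind DNA without a known natural ligand and depend on coactivators for their activity. PGC-1α, encoded by Ppargc1a, and PGC-1β, encoded by Ppargc1b, bind ERRs and other nuclear receptors and drive genes of mitochondrial respiration and fatty acid oxidation. In liver, PGC-1α also raises gluconeogenic genes in fasting, the NAD-dependent deacetylase SIRT1 acts on it, and PPARα, the product of Ppara, is the fatty-acid-activated receptor that governs the fasting response of lipid genes.

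Values are log2 MAS5 signals, and all differences are null minus wild type on that scale. Array medians ran from 5.80 to 6.08. A probe set was tested in a tissue when its mean reached the tissue's 40th percentile, a level of 5.24 to 5.39. The defining transcripts stood where the labels placed the tissue: Alb in liver, Bpifa2 in salivary tissue, Snap25 in brain and Umod in kidney were each above every array of the other tissues, and Atp4a, of the gastric proton pump, was so in wild-type stomach. Null stomach held Atp4a at 5.33 to 5.58 against 10.36 to 10.57 in wild-type stomach, under the highest array of the other tissues at 5.95. Xist was low in 10 arrays, null replicate 1 and wild-type replicate 3 of every tissue, so each group had the same mix by this measure. Whether the 3 arrays of a group are 3 animals is not stated in the labels. The p-values therefore reflect only the spread among these arrays, part of which may be technical. Where null and wild-type arrays are said not to overlap, this describes the printed values alone. The share of all probe sets without overlap was not counted, so a lack of overlap adds nothing to the test. In whole tissue, fewer cells of a type and less RNA per cell cannot be told apart.

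The promoters of 2 members are shown, that of Ppargc1a because it changed most and that of Esrra because it is the paralog whose level differed. Each is the 250 bases before a start annotated in RefSeq, assembly GRCm38.p6, minus strand, at chr5:51567726-51567975 and chr19:6921809-6922058. The Ppargc1a window lies inside the annotated gene and that of Esrra mostly so, so that other starts lie further upstream; the table gives 1 start for each gene. Capitals mark the core of the cAMP response element, TGACG, read here on the other strand as CGTCA.
Ppargc1a promoter: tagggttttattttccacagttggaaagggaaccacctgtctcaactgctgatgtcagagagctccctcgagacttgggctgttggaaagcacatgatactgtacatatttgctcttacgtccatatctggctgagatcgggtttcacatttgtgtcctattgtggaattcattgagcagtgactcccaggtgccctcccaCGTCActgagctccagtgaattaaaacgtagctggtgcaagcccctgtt
Esrra promoter: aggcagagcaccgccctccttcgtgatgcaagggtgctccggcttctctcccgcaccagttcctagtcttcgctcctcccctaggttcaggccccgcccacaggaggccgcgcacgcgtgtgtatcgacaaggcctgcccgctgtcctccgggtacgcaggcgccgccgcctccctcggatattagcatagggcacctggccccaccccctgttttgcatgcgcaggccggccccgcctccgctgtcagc
The marked letters lie 49 to 45 bases before the Ppargc1a start. Of 12 windows found for 7 of the 8 genes, 4 held TGACG on either strand, against 17.8% of 32851 mouse promoter windows, each searched over the same 250 bases. The others were those of Sirt1, Esrrb and Ppara. The ERR response element TNAAGGTCA stood in 0 of the 12 windows and in 1.14% of all. A direct repeat of AGGTCA spaced by 1 base, a PPAR and RXR site, stood in 0 of the 12 windows and in 0.0335% of all. The Esrra window was richer in G and C than that of Ppargc1a, with 68.4% against 48.0% and 22 against 5 CG pairs. A match describes letters in a window and does not show a site in use.

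Levels by tissue were described in wild-type arrays. All 13 member probe sets that passed the filter in some tissue differed between tissues (limma F test, Benjamini-Hochberg adjusted p under 0.05), where 86.8% of all tested probe sets did. Of their 130 tissue pairs 80 differed, against 51.8% over all probe sets, so tissue differences were common on the array. Levels below are compared within a probe set and never between genes.

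Ppara was highest in liver. It stood at 7.65, 7.48 and 7.43 in wild-type liver, against 4.51, 5.21 and 5.84 in wild-type stomach, and averaged 3.33 in salivary tissue, 3.22 in kidney and 1.69 in brain. Liver and stomach, the top pair, differed by 2.33 ± 0.82 (SE; limma adjusted p = 0.0268), while no other neighbours in the order did. It passed the filter in liver alone. In null liver it stood at 8.23 on average, 3.75 above null stomach (limma adjusted p = 4.34e-05).

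Ppargc1a, with 5 probe sets from 4 target sequences, was lowest in wild-type stomach by all 5, and highest in salivary tissue and then kidney by 4 of them. By the brightest, 1460336_at, the means were 8.30 in salivary tissue, 8.21 in kidney, 7.68 in brain, 7.16 in liver and 6.55 in stomach. Neighbours in that order differed only between liver and stomach (0.61 ± 0.22, SE; limma adjusted p = 0.0301). The fifth probe set, 1434099_at, put brain at the top with 7.37, 0.08 ± 0.18 (SE) above kidney.

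In null arrays the order changed. Liver was 4th of the 5 tissues in wild-type mice by every Ppargc1a probe set, and in null mice it was 1st by 4 probe sets and 2nd by 1434099_at. Null liver stood at 9.90 by 1460336_at, above null salivary tissue at 9.36, null kidney at 8.77, null brain at 7.81 and null stomach at 7.50, and the step from liver to salivary tissue did not pass the test (0.54 ± 0.36, SE; limma adjusted p = 0.246). Ppargc1b ranked stomach, kidney, salivary tissue, liver and brain in wild-type arrays, between 8.12 and 6.89, with no neighbours that differed. In null arrays liver led Ppargc1b at 9.19, above stomach at 8.17 (limma adjusted p = 0.0133).

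**Figure D1:**
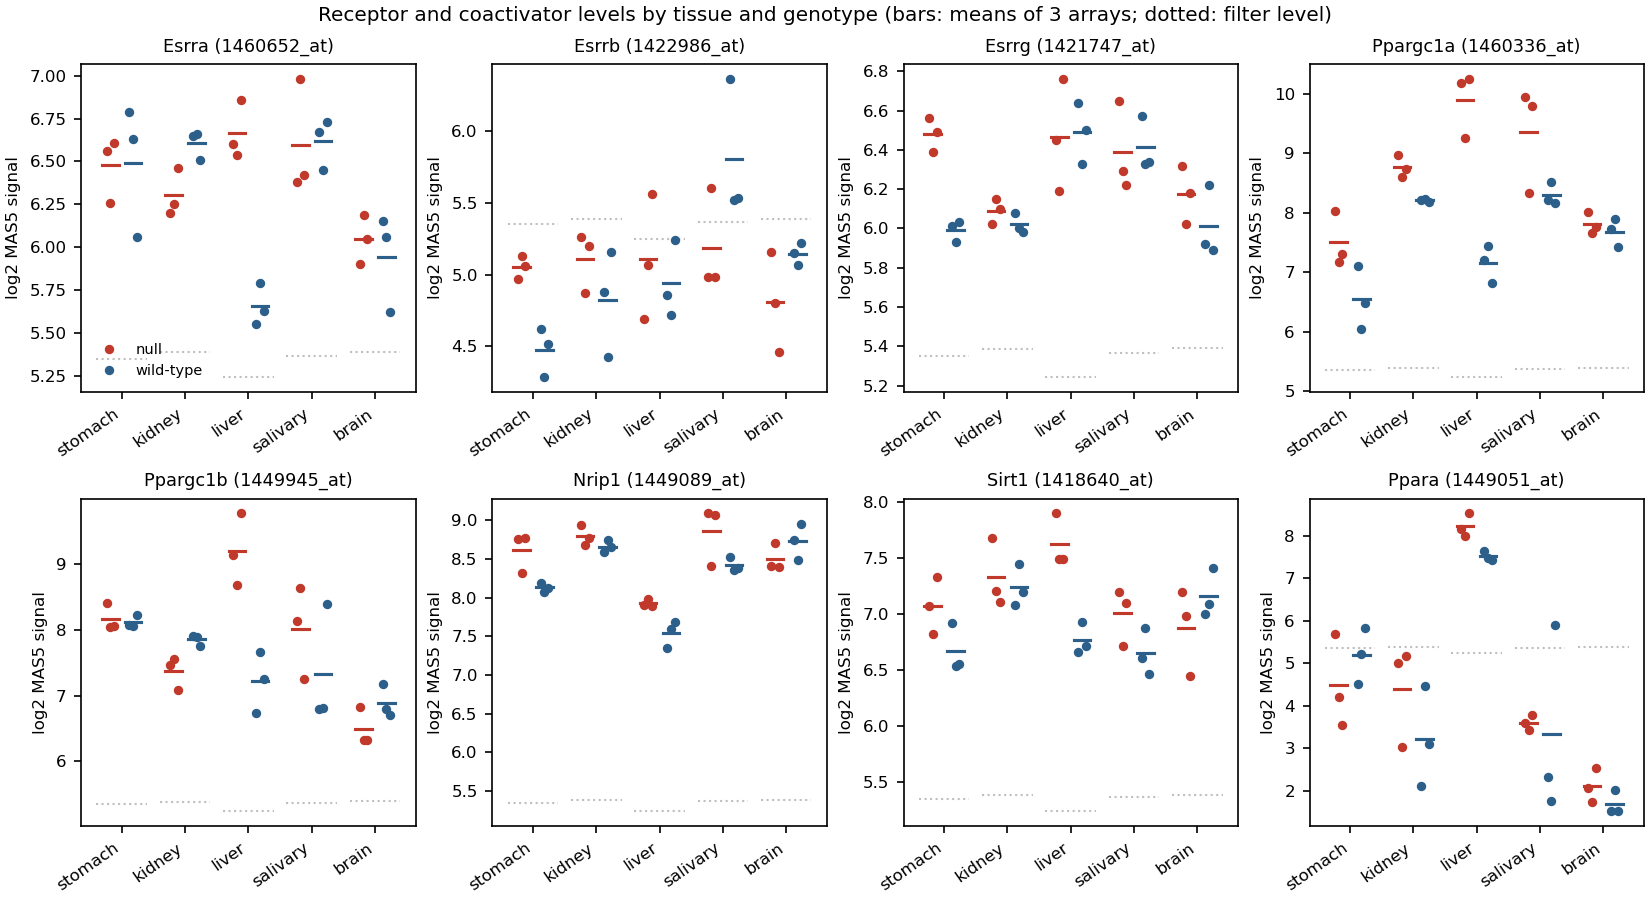
Level of each of the 8 genes by its brightest probe set: log2 MAS5 signal on the vertical axis, tissues on the horizontal axis, null arrays (red) left of wild-type arrays (blue), 3 arrays per group as points and their mean as a bar, with the filter level dotted. The mean of Ppara stands above the filter level in liver only, and null liver leads for Ppargc1a and Ppargc1b.

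Among the receptors, Esrra stood at 6.62, 6.61 and 6.49 in wild-type salivary tissue, kidney and stomach, with no step past the test. Brain stood lower at 5.94 than stomach (limma adjusted p = 0.0266) and liver lowest at 5.66. Esrrg, read by 1 dim probe set, ran from 6.49 in wild-type liver and 6.41 in salivary tissue down to 6.02 in kidney, 6.01 in brain and 5.99 in stomach, with a step between salivary tissue and kidney (limma adjusted p = 0.0336). Esrrb, a receptor of early embryo and placenta, lay mostly under the filter. Its probe set 1436926_at lay under the filter in every tissue, and 1422986_at passed in salivary tissue alone, at 4.98, 5.6 and 4.98 in null arrays against 6.36, 5.52 and 5.53 in wild-type arrays. Those groups overlapped (-0.62 ± 0.32, SE; limma adjusted p = 0.29). In stomach, under the filter and untested, 1422986_at read 4.97, 5.13 and 5.06 in null arrays against 4.62, 4.29 and 4.52 in wild-type arrays. The probe set 1436926_at read 5.13, 4.82 and 5.05 there against 3.95, 4.6 and 4.52 in wild-type arrays. All null values lay above all wild-type values by both. With no filter neither passed in stomach (limma adjusted p = 0.115 and 0.142), where 11.9% of all probe sets did. No change is read from values this low.

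Nrip1 encodes RIP140, which binds liganded and orphan receptors and recruits repressors. It was high in wild-type kidney and brain, with means of 8.66 and 8.73 by 1449089_at. That probe set put liver lowest at 7.54, whereas 1418469_at put stomach lowest at 6.95. The probe sets disagreed on stomach although the annotation gives both the same target sequence. Sirt1 stood highest in wild-type kidney and brain, at 7.24 and 7.17, and at 6.65 to 6.77 in the other tissues, and none of its neighbouring steps passed the test.

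The question for the null mice was whether paralogs or coactivators rose where ERRγ was missing. In liver 9 of 12 tested member probe sets rose, for 5 of 7 genes, and none fell, whereas 3.47% of all probe sets tested in liver rose and 3.46% fell. Both PGC-1 coactivators, Esrra, Sirt1 and Ppara were higher in null liver. The median difference was 1.49 over the 12 probe sets, beside 0.03 over all.

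Ppargc1a was the largest of these changes. By 1460336_at it read 10.19, 9.26 and 10.25 in null livers, against 7.21, 7.45 and 6.82 in wild-type livers. The groups lay far apart, with null replicate 2 the lowest null array. The difference was 2.74 ± 0.27 (SE, n = 3 each), a 6.68-fold higher signal with a 95% interval of 4.38 to 10.2 (limma, Benjamini-Hochberg adjusted p = 0.00193). The other 4 probe sets gave 2.25 to 2.51, each with adjusted p = 0.00404 and groups that did not overlap. Since 2 of the probe sets share a target sequence, the 5 are not independent readings.

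Ppargc1b, the closest relative of Ppargc1a, read 9.13, 8.68 and 9.77 in null livers, against 6.74, 7.66 and 7.25 in wild-type livers. All null values lay above all wild-type values. It rose by 1.98 ± 0.30 (SE), 3.94-fold (limma adjusted p = 0.00745). The paralog Esrra read 6.60, 6.54 and 6.86 in null livers, against 5.55, 5.79 and 5.63 in wild-type livers, again without overlap. It rose by 1.01 ± 0.19 (SE), 2.01-fold (limma adjusted p = 0.0157). Liver was the lowest of the wild-type tissues for Esrra and the highest of the null tissues, where no neighbouring step passed the test.

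Sirt1 read 7.90, 7.49 and 7.49 in null livers, against 6.66, 6.93 and 6.72 in wild-type livers, a rise of 0.86 ± 0.18 (SE; limma adjusted p = 0.023). Ppara read 8.17, 8 and 8.53 in null livers, against 7.65, 7.48 and 7.43 in wild-type livers, a rise of 0.71 ± 0.18 (SE; limma adjusted p = 0.0426). Neither pair of groups overlapped. Nrip1 was 0.39 higher by both probe sets and did not pass (limma adjusted p = 0.155 and 0.17). Esrrg differed by -0.02 ± 0.20 (SE; limma adjusted p = 0.96), with groups that overlapped.

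**Figure D2:**
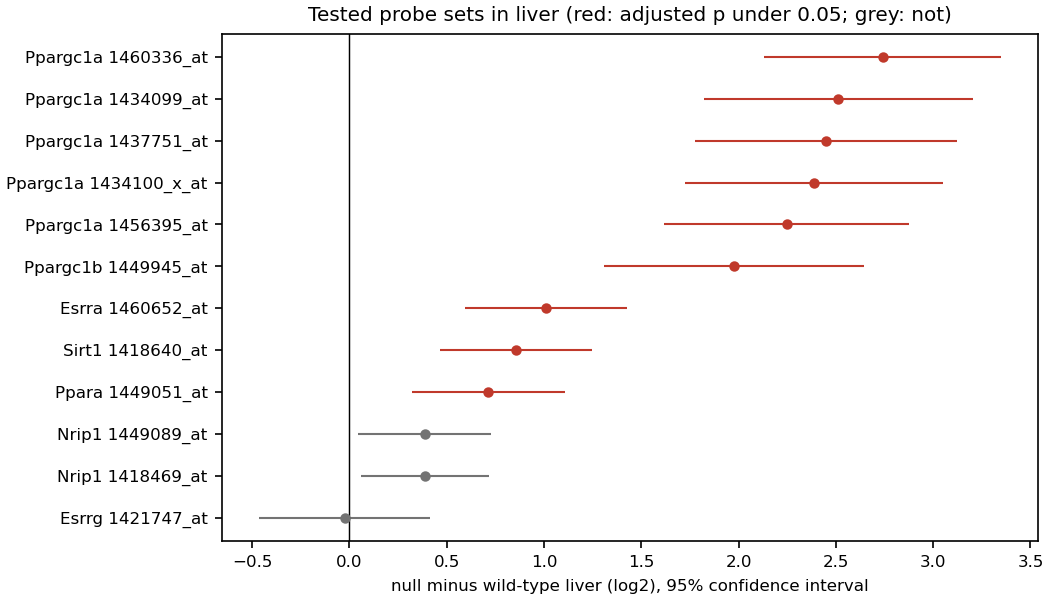
Null minus wild-type difference in liver for the 12 tested probe sets, on the log2 scale with 95% confidence intervals: red passed the test and grey did not. The 5 Ppargc1a probe sets lie between 2.25 and 2.74 and Esrrg lies at zero.

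The calls of Ppargc1a and Ppargc1b in liver held when any of the 6 arrays was left out. Those of Sirt1, Esrra and Ppara did not: Sirt1 held only without null replicate 2 (adjusted p up to 0.0935 otherwise), Ppara likewise (up to 0.15), and Esrra was lost without null replicate 1 (0.0552), null replicate 3 (0.0576), wild-type replicate 1 (0.0563) or wild-type replicate 3 (0.0671). The Ppara call held in 4 of 17 alternatives, and was lost also with no filter (adjusted p = 0.0646), quantile normalization (0.054), the replicate number as a block (0.0601), no trend, 1 fit of all arrays or Xist as a covariate. RNA integrity was read from the Actb and Gapdh control probe sets as a gap, the 3′ signal less the 5′ signal. The Actb gap was 2.36, 2.46 and 3.12 in null and 2.56, 2.62 and 2.38 in wild-type livers, with overlap. The Gapdh gap was 4.06 ± 0.13 in null and 4.51 ± 0.28 in wild-type livers (SD, n = 3 each), without overlap. With it as a covariate no probe set on the whole array passed in liver, and the Ppargc1a differences were 1.56 to 2.32 and that of Ppargc1b 1.96 (adjusted p = 0.146 to 0.207). The summed level of 7 hepatocyte markers was 15.55 to 15.78 in null and 15.60 to 15.72 in wild-type livers. That of 7 brown fat markers was 9.45 to 10.3 in null and 9.06 to 9.25 in wild-type livers, with 0 of 2 tested markers called and 5 of 7 higher, and Ucp1, which defines brown fat, lay at 1.44 to 3.08 in null and 1.41 to 1.65 in wild-type livers, far under the filter. Of 3 erythroid markers 1 rose, and their sum was 12.12 to 12.26 in null and 11.72 to 11.93 in wild-type livers. The null sums were also the higher ones in salivary tissue (7.98 to 8.60 against 7.14 to 7.88) and kidney (8.031 to 8.352 against 7.974 to 8.028). The same held in brain (6.983 to 7.84 against 6.76 to 6.976), but not in stomach (7.3 to 7.972 against 7.193 to 8.945). No erythroid marker was called outside liver. The part of erythroid RNA and RNA integrity in the result was not tested further.

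In stomach 4 of 10 tested member probe sets rose and none fell, for the genes Nrip1, Esrrg and Ppargc1a. Stomach had many changes: 11.2% of all tested probe sets rose and 12.2% fell there. The members' median was 0.44, beside 0.03 over all. Nrip1 changed most. By 1418469_at it read 8.37, 8.20 and 8.22 in null stomachs, against 7.07, 7.05 and 6.73 in wild-type stomachs. The groups lay far apart, and Nrip1 rose by 1.31 ± 0.13 (SE), 2.49-fold (limma adjusted p = 0.00111). By 1449089_at it read 8.76, 8.32 and 8.77 in null stomachs, against 8.19, 8.08 and 8.13 in wild-type stomachs, a smaller rise of 0.48 ± 0.14 (SE; limma adjusted p = 0.0397).

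Ppargc1a by 1460336_at read 8.03, 7.17 and 7.31 in null stomachs, against 7.11, 6.05 and 6.48 in wild-type stomachs. The lowest null array lay just above the highest wild-type array, and the rise was 0.96 ± 0.29 (SE; limma adjusted p = 0.0456). The other 3 tested Ppargc1a probe sets were higher by 0.13 to 0.53 and did not pass. Esrrg read 6.56, 6.39 and 6.49 in null stomachs, against 6.01, 5.93 and 6.03 in wild-type stomachs, and rose by 0.49 ± 0.13 (SE; limma adjusted p = 0.0312). The sources used here do not place this probe set relative to the deletion, and so the genotype labels are not checked by it. Ppargc1b (0.05 ± 0.13, SE) and Esrra (-0.02 ± 0.21, SE) did not pass in stomach. Their 95% intervals ran from -0.25 to 0.36 and from -0.48 to 0.45.

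Leaving out any stomach array but null replicate 2 cost calls: Nrip1 by 1449089_at was lost in all 5 such fits (adjusted p 0.0764 to 0.124), Esrrg also (0.0716 to 0.0929), and Ppargc1a in 4 of them (0.0775 to 0.138), while Nrip1 by 1418469_at held throughout (0.00139 to 0.00688). The parietal cell markers fell (5 of 5 lower), with sums of 9.37 to 9.54 in null and 12.22 to 12.32 in wild-type stomachs. Skeletal muscle sums were 7.70 to 8.24 in null and 8.79 to 9.01 in wild-type stomachs, with 2 of 3 tested markers lower. Neuron sums were 8.40 to 8.53 in null and 8.55 to 8.71 in wild-type stomachs, and kidney tubule sums were 8.78 to 8.97 in null and 8.45 to 8.62 in wild-type stomachs, with no marker of either called. The Gapdh gap was 3.77 ± 0.22 in null and 2.60 ± 0.45 in wild-type stomachs (SD, n = 3 each), and with it as a covariate 0 members and 2 probe sets on the whole array passed, while the differences were 1.02 for Nrip1 by 1418469_at, 0.62 for Nrip1 by 1449089_at, 0.58 for Esrrg and 1.45 for Ppargc1a by 1460336_at (adjusted p = 0.293 to 0.478). The Actb gap was 3.24, 2.36 and 2.39 in null and 1.47, 2.04 and 1.21 in wild-type stomachs, without overlap. Alb, from liver, read 6.81, 6.19 and 7.06 in null stomachs, against 5.93, 10.25 and 11.90 in wild-type stomachs. With the 2 high-Alb wild-type arrays left out, 1 wild-type array remained, which is assumed to vary like the null arrays, and 0.206% of all probe sets passed against 11.2% higher and 12.2% lower before, so a lost call says little there. The difference of Nrip1 by 1418469_at was then 1.19, and that of Ppargc1a by 1460336_at was 0.39, less than before. The part of the other markers in the result was not tested.

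In kidney no member passed: 0 of 11 tested by limma, where 0.412% of all probe sets rose and 0.368% fell, and 6 of 11 had an unadjusted p under 0.05, as did 2013 of 13577 over all. All 5 Ppargc1a probe sets were higher in null kidney, by 0.49 to 0.86. By 1460336_at the signal was 8.97, 8.61 and 8.74 in null kidneys, against 8.21, 8.24 and 8.18 in wild-type kidneys, with no overlap and a narrow wild-type spread (0.56 ± 0.12, SE; limma adjusted p = 0.0646). Without null replicate 2, 3 Ppargc1a probe sets passed, and this one stood at 0.65 (adjusted p = 0.0341). That fit called 2.17% of all probe sets, against 0.781% in the main fit. Leaving out any other array called 0.0295% to 0.214% of all, with no member among them. Beside this, kidney tubule sums were 12.41 to 12.54 in null and 12.63 to 12.94 in wild-type kidneys, with 2 of 6 markers lower, and brown fat sums were 10.45 to 10.79 in null and 10.34 to 10.38 in wild-type kidneys, with 0 of 1 tested called. Their part in the result was not tested.

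Ppargc1b ran the other way in kidney. It read 7.46, 7.56 and 7.08 in null kidneys, against 7.91, 7.89 and 7.76 in wild-type kidneys, all null values below all wild-type values (-0.49 ± 0.14, SE; limma adjusted p = 0.163). Esrra was also lower in every null kidney, at 6.20, 6.25 and 6.46 against 6.65, 6.66 and 6.51 in wild-type kidneys (-0.30 ± 0.14, SE; limma adjusted p = 0.357). Nrip1, Sirt1 and Esrrg differed by -0.10 to 0.14, with overlapping groups.

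In salivary tissue 1 of 12 tested member probe sets rose and none fell, beside 3.5% and 4.72% of all tested probe sets. It was Ppargc1a by 1456395_at, at 9.33, 8.43 and 9.09 in null arrays against 7.91, 7.99 and 8.12 in wild-type arrays. The groups did not overlap (0.94 ± 0.22, SE; limma adjusted p = 0.0322). By 1460336_at, null replicate 2 with 8.34 fell within the wild-type range of 8.17 to 8.52, while the other null arrays stood at 9.95 and 9.80 (1.06 ± 0.36, SE; limma adjusted p = 0.112). Nrip1 by 1418469_at read 8.41, 7.80 and 8.32 in null arrays against 7.57, 7.71 and 7.43 in wild-type arrays (0.61 ± 0.19, SE; limma adjusted p = 0.0833). Leaving out null replicate 2 gave 7 calls, in a fit that called 10.1% of all probe sets, against 8.22% in the main fit. Leaving out any other array gave 0, with 2.36% to 5.55% of all probe sets called.

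Brown fat RNA differed between these arrays. Ucp1 read 11.31, 12.75 and 11.02 in null salivary arrays, against 5.99, 4.04 and 12.14 in wild-type salivary arrays. Summed over 7 brown fat markers the range was 13.01 to 14.25 in null and 10.68 to 13.58 in wild-type arrays, all 7 were higher in null and none passed. Skeletal muscle markers also differed: the sum of 8 ran from 8.61 to 9.75 in null and from 6.66 to 7.26 in wild-type arrays, with 8 of 8 higher, 1 tested and 0 called. Of 3 tested salivary gland markers 1 was called lower in null arrays, and none was higher. Their sum was 13.26 to 13.59 in null and 13.50 to 13.65 in wild-type arrays. The part of muscle and gland RNA in the result was not tested. Ppargc1b read 8.14, 8.64 and 7.25 in null arrays against 6.79, 6.81 and 8.39 in wild-type arrays, and its highest arrays of each genotype were those of highest Ucp1. Ppara, mostly under the filter here, read 3.59, 3.43 and 3.78 in null arrays against 2.33, 1.76 and 5.90 in wild-type arrays. It was not tested, and no order is read from values this low. For Ppargc1a by 1460336_at, null replicate 2 and wild-type replicate 3, highest in Ucp1 within their genotype, were among the low arrays. By 1456395_at, the probe set called here, wild-type replicate 3 was the highest wild-type array at 8.12. Null replicate 2 was the lowest null array by that probe set, at 8.43. No member passed with Ucp1 as a covariate, and Ppargc1a by 1456395_at then differed by 0.95. With the 2 low-Ucp1 wild-type arrays left out, 1 wild-type array remained and 0.214% of all probe sets passed. No member was among them, and Ppargc1a by 1456395_at differed by 0.83.

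**Figure D3:**
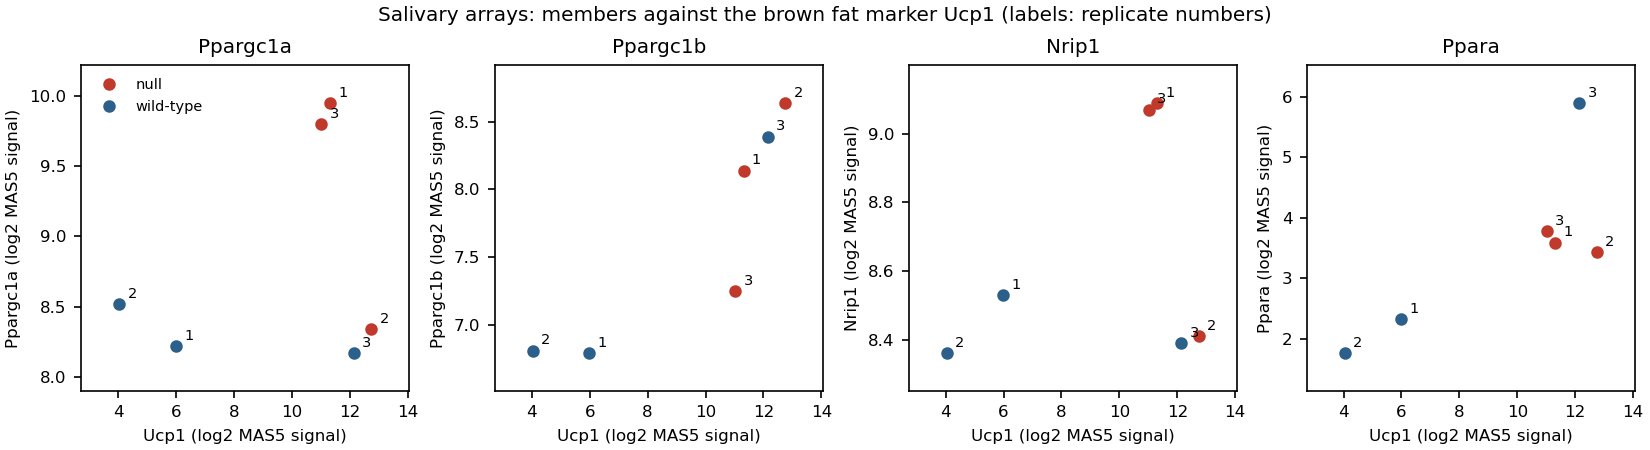
The 6 salivary arrays, null in red and wild-type in blue, with the log2 signal of Ucp1 on the horizontal axis and that of Ppargc1a, Ppargc1b, Nrip1 or Ppara (brightest probe set) on the vertical axis; numbers are replicate numbers. Wild-type replicates 1 and 2 lie at low Ucp1, 5.99 and 4.04, and the other 4 arrays above 11.

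In brain no probe set of the 13577 tested passed (0% called), by limma with 1426 at an unadjusted p under 0.05. Among the 11 tested member probe sets 1 had an unadjusted p under 0.05. It was Ppargc1a by 1434099_at, at 7.18, 7.07 and 6.54 in null brains against 7.49, 7.38 and 7.25 in wild-type brains (-0.44 ± 0.18, SE; limma adjusted p = 0.435). The other 4 Ppargc1a probe sets differed by -0.10 to 0.13, with overlapping groups. Ppargc1b stood at 6.82, 6.33 and 6.32 in null brains against 7.17, 6.79 and 6.71 in wild-type brains, and the groups overlapped (-0.40 ± 0.19, SE). Null replicate 1 stood apart in brain: its skeletal muscle sum was 10.21 against 6.54 to 6.81 in the other brain arrays, and its salivary gland sum was 8.09 against 4.81 to 5.54. Without it Ppargc1b differed by -0.57 and Ppargc1a by 1434099_at by -0.57 (limma adjusted p = 0.369 for each), and no member passed.

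**Figure D4:**
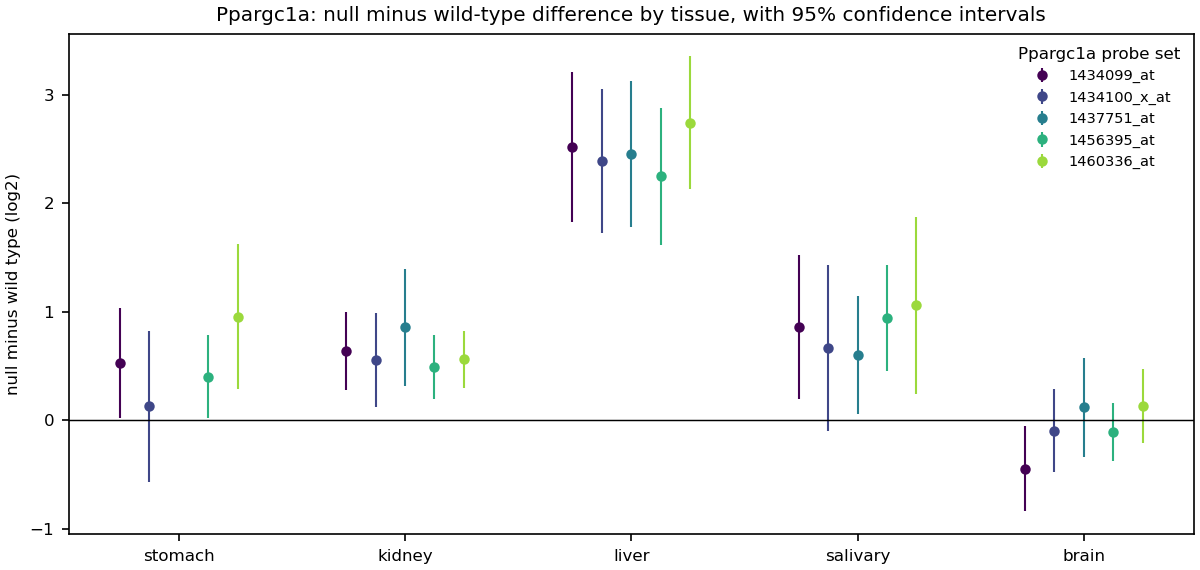
Null minus wild-type difference of the 5 Ppargc1a probe sets in each tissue, on the log2 scale with 95% confidence intervals; 1437751_at is left out in stomach, where it lay under the filter. Liver differences of 2.25 to 2.74 stand above those of the other tissues, which run from -0.44 to 1.06.

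Null replicate 2 was the lowest null array of Ppargc1a in 22 of 25 combinations of probe set and tissue, among them all 5 probe sets in stomach, liver and salivary tissue, 4 in kidney and 3 in brain. The labels do not say whether arrays of one number share an animal.

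Averaged over the 5 tissues, 8 of 13 member probe sets rose, where 11.4% of all probe sets did, and none fell. All 5 Ppargc1a probe sets did, by 0.73 to 1.09 (limma adjusted p 2.37e-06 to 0.000726), as did both of Nrip1, by 0.43 and 0.24 (1.83e-05 and 0.0115), and Sirt1, by 0.28 (0.0234). Sirt1 did not pass without liver (adjusted p = 0.36), stomach (0.0968), salivary tissue (0.0698), null replicate 1 (0.229), wild-type replicate 1 (0.0874) or wild-type replicate 3 (0.0985). Nrip1 by 1449089_at did not pass without stomach (adjusted p = 0.119), liver (0.0701), null replicate 1 (0.0854), null replicate 3 (0.058) or wild-type replicate 2 (0.0727). Esrra (0.15 ± 0.09, SE), Ppargc1b (0.36 ± 0.15), Esrrg (0.13 ± 0.07), Esrrb (0.01 ± 0.12) and Ppara (0.38 ± 0.33) did not pass. Without liver, 4 of the 5 Ppargc1a probe sets still passed with averages of 0.40 to 0.68, and the fifth stood at 0.32 (adjusted p = 0.163). The fit behind these averages took all arrays as independent. Arrays of one genotype and number may come from one animal across tissues, which the labels leave unsaid. Xist was low in null replicate 1 and wild-type replicate 3 of every tissue. Null replicate 2 was the lowest null array of Ppargc1a in 22 of 25 combinations. If animals were shared, the p-values of the average may be too small, above all for Ppargc1a. A fit with genotype and number as a block across tissues kept all 8 calls. It took the same correlation, 0.0301, for every probe set, and so cannot settle the point for Ppargc1a.

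The differences were not equal between tissues for 9 of 13 member probe sets, against 15.3% of all probe sets (limma F test of the 5 differences). These were all 5 of Ppargc1a (adjusted p 0.000142 to 0.00374), Ppargc1b (0.00361), Esrra (0.0105), Nrip1 by 1418469_at (0.000139) and Sirt1 (0.0473). Ppargc1b spanned 1.98 in liver to -0.49 in kidney and Esrra 1.01 in liver to -0.30 in kidney. Without liver 2 of these 9 passed, Nrip1 by 1418469_at and Ppargc1a by 1456395_at (adjusted p = 0.000412 and 0.0383).

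Genes that the receptors and coactivators act on or with were followed in 7 lists with 134 genes on the array, each by its brightest probe set. Over all tested probe sets 11.2% rose and 12.2% fell in stomach, 0.412% and 0.368% in kidney, and 3.47% and 3.46% in liver. In salivary tissue 3.5% rose and 4.72% fell, and in brain none passed. Of 12 tested partners and targets of PGC-1α in gluconeogenesis, 6 rose in liver, 6 did not pass and none fell, with a median of 0.90 beside 0.03 over all. The share over all probe sets was 3.47% higher. Tat, tyrosine aminotransferase, stood at 11.75 in null and 9.17 in wild-type livers (2.58 ± 0.33, SE; limma adjusted p = 0.00435), and the transcription factor Cebpb rose by 1.99 (0.00718). G6pc, glucose-6-phosphatase, rose by 1.08 (0.0201), the factor Foxo1 by 1.07 (0.0321), and Pck1, which encodes phosphoenolpyruvate carboxykinase, and the receptor Hnf4a passed as well. In kidney 3 of 9 rose, Igfbp1 by 1.85 (limma adjusted p = 0.000645), Pck1 by 1.01 (0.0437) and G6pc by 0.72 (0.0497), and in salivary tissue 2 of 8, Foxo1 by 1.27 and Cebpb by 0.73.

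Of 33 tested ERR and PGC-1 targets in liver 1 rose and 1 fell, near the shares of 3.47% and 3.46% over all probe sets, and the median was -0.19. Pdk4, the kinase that shuts pyruvate out of the citric acid cycle, stood at 9.20 in null and 6.90 in wild-type livers (2.29 ± 0.21, SE; limma adjusted p = 0.00133), and Acadl, long-chain acyl-CoA dehydrogenase, fell by 0.88 (0.0082). In stomach 2 rose and 15 fell of 34, with Fabp3, the heart-type fatty acid binder, at 5.18 in null stomachs, under the filter level of 5.35, and 7.72 in wild-type stomachs (-2.54 ± 0.25, SE; limma adjusted p = 0.000956) and Pdk4 higher by 2.45. Of the other listed targets there Uqcrc1 of complex III fell by 1.03 and Idh2 by 0.98. In kidney Acadm, medium-chain acyl-CoA dehydrogenase, fell by 0.55 (0.0497) and in salivary tissue Pdk4 rose by 3.94 (0.00953), 1 of 34 in each. In brain 0 of 33 passed.

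Of 30 tested PPARα targets 8 fell and 3 rose in null liver, with a median of -0.49, in the same arrays in which Ppara was higher. Vnn1, pantetheinase, stood at 6.52 in null and 8.87 in wild-type livers (-2.35 ± 0.26, SE; limma adjusted p = 0.00309), and Fabp1, the liver fatty acid binder, fell by 1.74 (0.0227). Cyp4a12a, a fatty acid hydroxylase, stood at 3.85 in null livers, under the filter level of 5.24, and 6.94 in wild-type livers (-3.09 ± 0.39, SE; 0.00404). Pdk4, Angptl4 and Pex11a rose. Pdk4, Acadl and Acadm are on both lists. In stomach 3 rose and 8 fell of 27, beside 11.2% and 12.2% over all, so the rises were near that share. In kidney 0 rose and 2 fell of 26. In salivary tissue 2 rose and 0 fell of 27 (Pdk4 and the peroxisomal enzyme Ehhadh, 2.77), and in brain 0 of 23 passed.

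Among 26 other coregulators on the array, Lpin1, whose product lipin 1 is a phosphatidate phosphatase that also coactivates with PGC-1α and PPARα, rose in 3 tissues. It stood at 10.70 in null and 8.20 in wild-type livers (2.50 ± 0.37, SE; limma adjusted p = 0.00646), at 10.12 in null and 7.55 in wild-type salivary tissue (2.57 ± 0.16; 0.000168), and rose by 0.84 in kidney (0.0292). Pnrc1 and Pnrc2, proline-rich nuclear receptor coactivators, rose in liver by 0.74 and 1.01, so that 3 of 24 rose there, beside 3.47% over all. In stomach 2 rose and 4 fell of 22, beside 11.2% and 12.2% over all. In salivary tissue 3 rose and 1 fell of 22, beside 3.5% and 4.72% over all. Rxrb, a partner of PPARα on DNA, rose by 1.43 in liver (limma adjusted p = 0.0273) and by 1.14 in salivary tissue (0.00574). Mitochondrial biogenesis factors passed in 0 of 14 in liver, kidney and brain, 3 in stomach (1 higher, 2 lower) and 1 in salivary tissue, where Polg2 rose by 0.62. Of the sirtuins and energy sensors other than Sirt1, Nampt, which makes the NAD precursor, rose by 1.29 in salivary tissue (0.0292), and none passed in the other tissues.

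**Figure D5:**
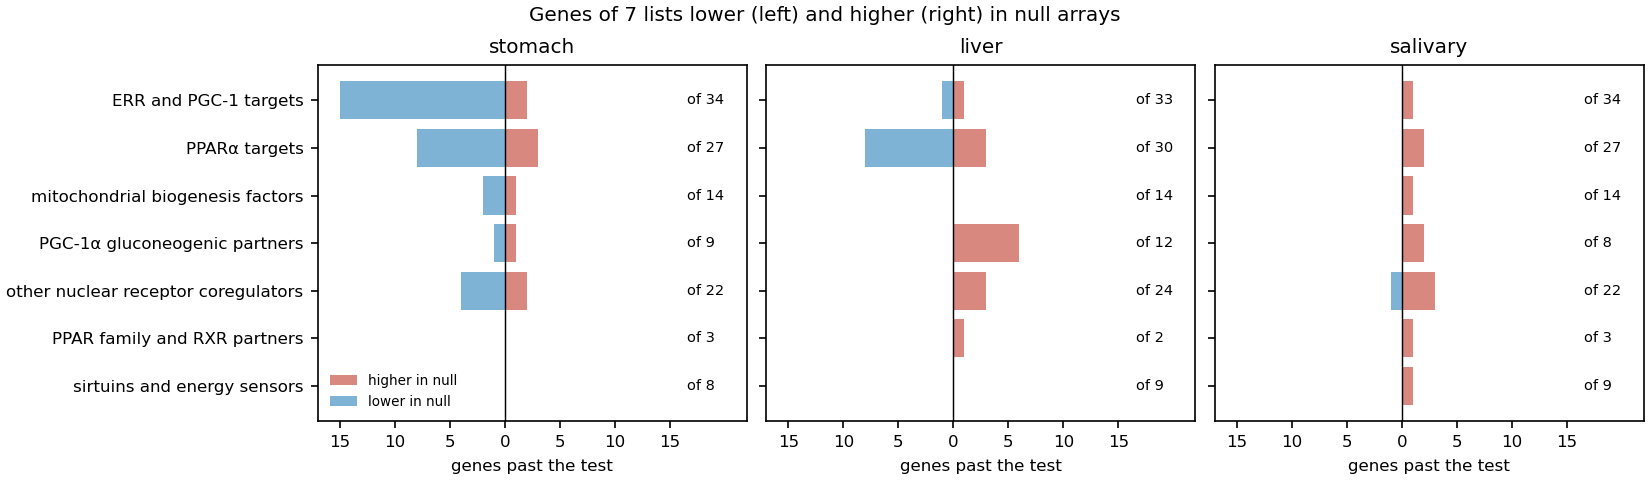
Number of genes of each of 7 lists past the test in stomach, liver and salivary tissue, those lower in null arrays to the left (blue) and those higher to the right (red), with the number tested at the right edge. In liver the gluconeogenic partners lie on the higher side (6 of 12) and PPARα targets mostly on the lower side (8 of 30).

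The genes whose level was most like each member over the 30 arrays were found by Pearson correlation among 15310 to 15314 probe sets with other symbols. The arrays share tissue, and no p is given. Ppargc1a was closest to Stag2, a cohesin subunit (r = 0.85), Pim3, a kinase (0.83), and Klhl24 (0.82). Within the 10 groups, after each group's mean was taken off, these r were 0.65, 0.74 and 0.40. Sirt1 was closest to Qk, an RNA-binding protein (0.86, and 0.82 within groups), Nrip1 to Smad4, a mediator of TGF-β signals (0.90, and 0.43), and Ppargc1b to Gadd45b (0.80, and 0.22). Ppara followed Fgl1, a secreted liver protein (0.91, and 0.23), Esrra followed Timm17a of the mitochondrial import machinery (0.73, and 0.36), and the dim probe sets of Esrrg and Esrrb followed Mark4 (0.81, and 0.74) and Yy1 (0.73, and 0.66).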

How the data were processed

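The deposited values are log2 MAS5 signals, MAS5 per the submitters' processing notes, with version and settings not given in the sources used here. Base 2 follows from the values, since the 2% trimmed linear mean is 149.988 to 150.008 on all 30 arrays. No further normalization was applied. Of 22690 probe sets 64 controls were left out, and symbols came from the supplied probe table (1 symbol for 20380, several for 691, none for 1555). All columns were mapped.

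Null and wild-type arrays of a tissue were compared in R 4.3.3 using limma 3.58.1 (lmFit, eBayes with trend) on probe sets at or above the 40th percentile, with Benjamini-Hochberg adjustment over all of them and adjusted p under 0.05. A fit of 10 groups over 30 arrays gave the average and the F test, and a fit of 15 arrays the tissue order, with adjustment over probe sets and 10 pairs. Steps were tested on simulated data. Precision is limited by 3 arrays per group. Deviations of same-numbered null and wild-type arrays from their group means correlated at -0.24 to 0.14, over 0.1 in 1 of 15 pairs. No pairing by replicate number was seen by this measure. Deviations from means of 3 arrays cannot exclude one, and the labels give none.

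The members and lists were chosen with earlier results of these data known. All members are named. From each list and tissue up to 4 genes past the test were eligible, by size of difference, and the 3 most similar probe sets for likeness. Pck1, Hnf4a, Angptl4 and Pex11a in liver lie beyond the 4 and were chosen after their values were seen. Marker lists for cell types were summed on the linear scale. Alternatives were other filters, normalizations, a floor, no trend, 1 fit for all arrays, a replicate block, Xist, Gapdh gap, Alb and Ucp1 covariates and leaving out arrays or tissues. The fits that omit high-Alb or low-Ucp1 arrays, and the motif TGACG, were chosen after seeing the data.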

Additional observations from a re-analysis of the deposited data

Results flagged for a closer look

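For 9 member probe sets the null minus wild-type difference was not the same in the 5 tissues (limma F test over 30 arrays, Benjamini-Hochberg adjusted). The adjusted p was 0.00037 for Ppargc1a by 1434099_at, 0.00374 by 1434100_x_at, 0.00285 by 1437751_at, 0.000142 by 1456395_at and 0.00229 by 1460336_at. It was 0.00361 for Ppargc1b, 0.0105 for Esrra, 0.000139 for Nrip1 by 1418469_at and 0.0473 for Sirt1. Ppargc1a, Ppargc1b, Esrra and Sirt1 differed most in liver, and Nrip1 most in stomach. Groups of 3 arrays are too small for a test of single outlying arrays.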

How the results depend on the processing

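No called result turned its direction. Shares in brackets are those of all tested probe sets called in the same fit. The 4 stomach calls (23.5%) numbered 1 with no filter (11.9%), 2 with equal array medians (22.9%) and 2 with no mean-variance trend (21.6%). As covariates, Xist left 2 (19.7%), the Gapdh gap 0 (0.0147%) and Alb 1 (3.71%). With 1 array left out they numbered 1 to 6 (10.8% to 26.5%). In kidney (0.781%) there was 1 call with Alb as a covariate (1.38%) and 0 to 3 with 1 array left out (0.0295% to 2.17%). The 9 liver calls (6.93%) numbered 0 with the Gapdh gap (0%) and 5 with Ucp1 (1.3%), which lay under the filter in liver. With 1 array left out they numbered 6 to 9 (1.44% to 13.2%). The salivary call (8.22%) numbered 0 with no trend (5.63%) and 4 in 1 fit of all 30 arrays (16%). As covariates, the Gapdh gap left 0 (6.45%), Ucp1 0 (2.03%) and Alb 0 (5.94%). With 1 array left out it numbered 0 to 7 (2.36% to 10.1%). With the replicate number as a block the salivary count was 0 (3.79%). It was the only member count that moved by over 1.5 times under the block, while the labels give no pairing. Under the block the calls of Esrrg in stomach (adjusted p = 0.0641), Ppara in liver (0.0601) and Ppargc1a by 1456395_at in salivary tissue (0.0594) were lost too. With Ucp1 as a covariate in liver Ppargc1b differed by 1.66, Esrra by 0.90, Sirt1 by 0.97 and Ppara by 0.56. Without liver the average gave 5 calls and the difference between tissues 2. Tissue pairs numbered 44 with the Gapdh gap. List genes called were 36 in stomach and 0 with the gap. In kidney they were 6, with 1 under no filter (0.115%) and 1 with the gap (0.302%). In liver they were 21, with 12 under no filter (2.33%) and 0 with the gap. The causes were not tested. Of 1247 values of single members under an alternative, 93 lost their call, 18 gained one and the rest kept their side of the threshold. Only a result called in the main fit could lose its call, and the 1247 include results never called there. The 93 are therefore not a share of 1247 calls. Low signal limits Esrrb, Esrrg and, outside liver, Ppara.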
